A study of Mus musculus with 6 samples.

Results

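The genes described here are 9 genes of the myoepithelial cell, the contractile basal cell of the mammary gland, out of 47643 gene identifiers counted in each library. They were chosen by name, not by a rule on measured values, and fall into 6 genes of the contractile apparatus (Acta2, Myh11, Myl9, Cnn1, Tagln and Mylk) and 3 genes of basal identity, hormone sensing and the cell surface (Trp63, Oxtr and Mme). All 9 were found in the files. The samples were 6 libraries of CD45-EPCAM+ cells, gated also as CD31- and PDGFRα- in the study's methods, sorted from breast tumors of female mice of the MMTV-PyMT model, strain FVB/N-Tg (MMTV-PyVT)634Mul/J, in which the MMTV promoter drives the polyoma middle T antigen mainly in mammary epithelium. All 6 mice received the anti-VEGF-A antibody B20-4.1.1 at 5 mg/kg, 2 times per week for 6 weeks, from 7 weeks of age. The study parts such tumors into low and high hypoxia, but the class of each tumor was not known here and vehicle-treated tumors were not analysed here, so there is no comparison between groups. Values are given per tumor, numbered 1 to 6.

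Myoepithelial cells form the outer layer of mammary ducts and alveoli, between the luminal cells and the basement membrane. They carry a smooth muscle apparatus of actin and myosin, and contract when oxytocin binds its receptor, which ejects milk. Their identity is kept by the transcription factor p63, and the layer is thinned and lost as mammary carcinomas of mice and humans become invasive. In the normal gland these cells carry less EPCAM on their surface than luminal cells do, so a sort on EPCAM can favour luminal cells. The effect of the sort gate on the values below was not tested.

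Counts on genes lay between 2509482 (tumor 2) and 5893246 (tumor 1) per library. The values are in CPM, the count of a gene scaled to the same total of counts on genes (1000000) in every library. A level of 3 counts, used as the floor of detection, corresponds to 0.509 to 1.20 CPM depending on the library. Reads were taken near the 3′ end of each transcript, so CPM depends little on transcript length, and forms of a gene that share a 3′ end are counted together. The library of tumor 1 stood apart, with a median Pearson correlation of 0.788 with the others across 8873 genes, against 0.905 to 0.939 for the other 5. Intervals below are exact Poisson intervals at 95% and cover counting error only. Overlap of 2 intervals is not a test and does not show that 2 tumors are alike. In these bulk samples, fewer cells of a type and less RNA per cell cannot be told apart.

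The genes that define the contractile apparatus were close to the floor in all 6 tumors, while Mylk and Mme were well above it and Trp63, Myl9 and Oxtr lay between. Acta2, Myh11, Cnn1 and Tagln together had 7, 5, 7, 2, 14 and 6 counts in tumors 1 to 6, or 0.425 to 2.80 CPM. Of the 9 genes, 4 (Trp63, Mme, Myl9 and Mylk) had more than 3 counts in every tumor, against 49.8% of 21620 protein-coding genes, so the group as a whole was detected about as often as any coding gene. Myh11 and Cnn1 had at most 3 counts in every tumor. Median levels spanned from 42.5 CPM for Mme to 0.0848 CPM for Cnn1.

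**Figure D1:**
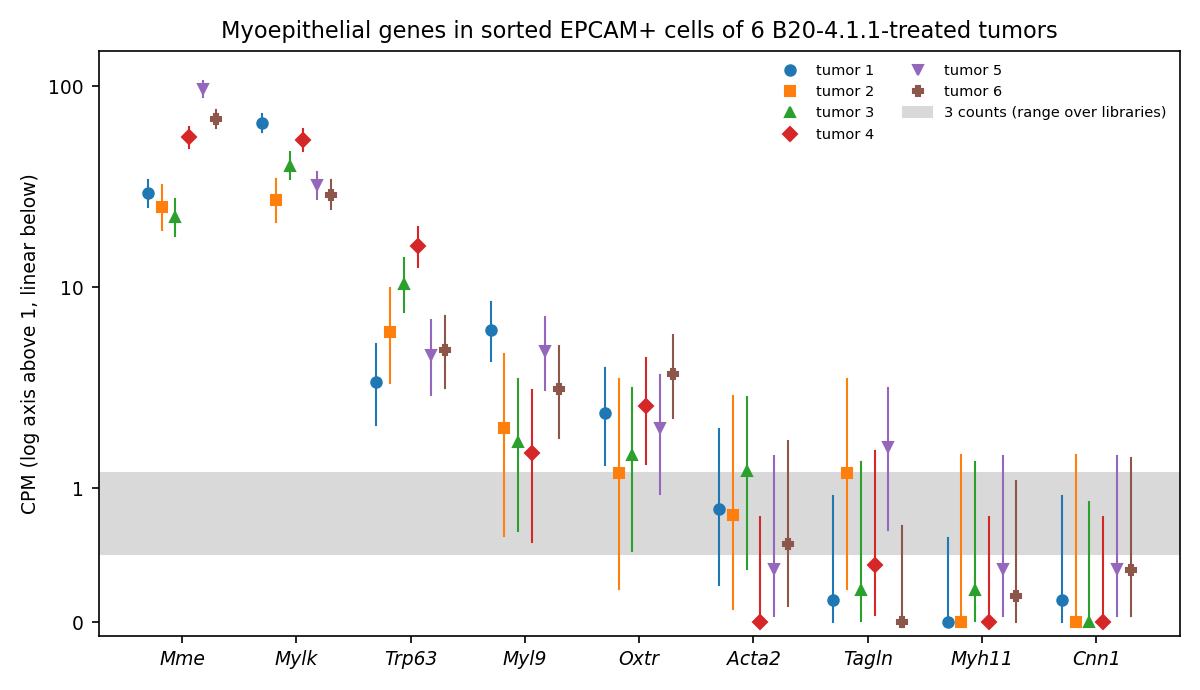
CPM of the 9 genes in each of the 6 tumors, with exact Poisson 95% intervals as vertical lines; the vertical axis is logarithmic above 1 CPM and linear below, and the gray band is the level of 3 counts over the libraries. Mme and Mylk lie above 20 CPM in every tumor, whereas Acta2, Tagln, Myh11 and Cnn1 lie in or under the band or just above it, at most 1.60 CPM.

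Acta2 encodes smooth muscle α-actin, the usual marker of the myoepithelial layer. It had 5, 2, 5, 0, 2 and 3 counts in tumors 1 to 6, or 0 to 1.21 CPM with a median of 0.691 CPM. Only tumors 1 and 3 exceeded 3 counts. Over all 6 libraries the 17 counts of Acta2 amount to 0.621 CPM, with an interval of 0.362 to 0.995 CPM. The interval of tumor 4, where no count was seen, reaches 0.785 CPM and overlaps that of tumor 3, the highest, which starts at 0.394 CPM. A difference between tumors in Acta2 was not tested. Myh11, the smooth muscle myosin heavy chain, was lower still, with 0, 0, 1, 0, 2 and 1 counts. Its 4 counts over all libraries amount to 0.146 CPM, with an interval of 0.0398 to 0.374 CPM.

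Cnn1, or calponin, which binds actin and damps the myosin ATPase, had 1, 0, 0, 0, 2 and 2 counts. Its 5 counts over all libraries amount to 0.183 CPM, with an interval of 0.0593 to 0.427 CPM. Tagln, or transgelin (SM22α), an actin cross-linking protein, had 1, 3, 1, 2, 8 and 0 counts, or 0 to 1.60 CPM. Tumor 5 was the highest for Tagln and the sole tumor above 3 counts. The interval of Tagln in tumor 5 starts at 0.690 CPM, just under the upper limit of 0.720 CPM for tumor 6, and a difference between these tumors was not tested. None of these 4 genes passed the filter on low counts that kept 12088 genes.

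The annotated 3′ ends of the genes were examined for what could keep reads from being counted. In GENCODE M21, a GRCm38 annotation, Acta2 (ENSMUSG00000035783) spans 34241090 to 34255590 of chromosome 19, minus strand. Myh11 (ENSMUSG00000018830) spans 14194535 to 14291372 of chromosome 16, minus strand. On chromosome 9, Cnn1 (ENSMUSG00000001349) spans 22099216 to 22109630, plus strand, and Tagln (ENSMUSG00000032085) spans 45929619 to 45936058, minus strand. For each of the 9 genes, 0 of the 251 windows of 50 bases in the last 300 bases of the longest coding transcript occur in a transcript of another gene. For Tagln, exons of Pcsk7 on the opposite strand overlap these last 300 bases. Pcsk7 had 15.5 to 33.1 CPM. Whether the counting used the strand is not given in the sources used here, so the Tagln counts are uncertain. The last 300 bases of the other 8 genes overlap no exon of another gene. Between 16.1 and 41.4% of the reads in a file fell on no gene, and whether reads of these genes ended beyond the annotated ends was not tested.

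Relatives of the same proteins that are also made outside muscle were for the most part well measured in the same libraries. The relatives were chosen after their values were seen, as a description. Levels of different genes are compared here in TPM, which divides counts by the union exon length of the gene. For reads taken at the 3′ end this division can understate long genes, so the CPM order is given as well below. Actb, the cytoplasmic β-actin, had 2298 to 4065 TPM, whereas Acta2 had 0 to 1.40 TPM. Myh9, a non-muscle myosin heavy chain, had 95.6 to 138 TPM, whereas Myh11 had 0 to 0.132 TPM. Cnn3, a calponin found outside muscle, had 110 to 245 TPM, whereas Cnn1 had 0 to 0.366 TPM. Tagln2 had 429 to 891 TPM, whereas Tagln had 0 to 2.01 TPM. In each of these 4 pairs, every tumor had more of the non-muscle form than any tumor had of the smooth muscle form. Not every relative was high in these counts. Myh10, another non-muscle myosin heavy chain, had 1.95 to 11.4 TPM, and Actg1, the cytoplasmic γ-actin, is listed at 3.46 to 5.97 TPM. Actg1 had 14 to 33 counts in a tumor, and no exon of another gene overlaps its last 300 bases. Whether reads of Actg1, or of the smooth muscle genes, were lost in counting was not tested. Of the 251 windows of 50 bases at the 3′ end of Actb, 8.37% occur in a transcript of another gene, and none of those of Actg1, so a small part of the Actb counts is uncertain.

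**Figure D2:**
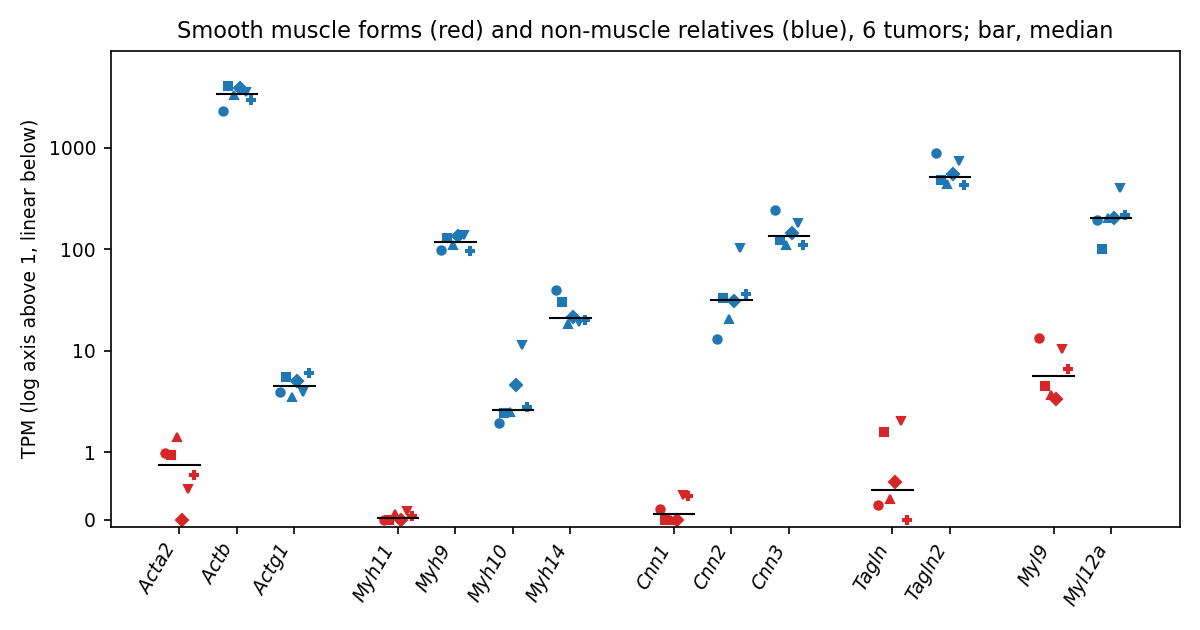
TPM of 5 smooth muscle genes (red) and their non-muscle relatives (blue), 1 point per tumor and a bar at the median; the vertical axis is logarithmic above 1 TPM and linear below. Acta2, Myh11, Cnn1 and Tagln reach at most 2.01 TPM, Actb lies at 2298 TPM or more and Tagln2 at 429 TPM or more.

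Myl9, the regulatory light chain of smooth muscle myosin and the substrate of the kinase encoded by Mylk, had the lowest median CPM of the 4 genes with more than 3 counts in every tumor. Myl9 (ENSMUSG00000067818; chromosome 2, 156775420 to 156781658, plus strand) had 36, 5, 7, 7, 24 and 16 counts in tumors 1 to 6. Its level lay between 1.49 CPM (tumor 4) and 6.11 CPM (tumor 1), with a median of 2.56 CPM and a mean of 3.20 ± 1.88 CPM (SD, n = 6). Tumors 1 and 5 were high and tumors 2, 3 and 4 low. The interval of tumor 1 starts at 4.28 CPM, above the upper limit of 3.07 CPM for tumor 4. Myl12a, a light chain of non-muscle myosin, had 99.6 to 401 TPM, against 3.37 to 13.5 TPM for Myl9.

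Mylk, the myosin light chain kinase that calcium signaling switches on, had the highest CPM of the 6 contractile genes in every tumor. Mylk (ENSMUSG00000022836, chromosome 16, 34745210 to 35002420, plus strand) had 387, 68, 166, 253, 161 and 148 counts. Its level lay between 27.1 CPM (tumor 2) and 65.7 CPM (tumor 1), with a median of 36.2 CPM and a mean of 41.3 ± 15.4 CPM (SD, n = 6). Tumors 1 and 4 were the highest, and the interval of tumor 1 starts at 59.3 CPM, above the upper limit of 34.4 CPM for tumor 2. The locus gives rise to a long kinase found outside muscle, a short smooth muscle kinase and telokin, which holds its last domain alone. The annotation lists 8 transcripts of Mylk, and the counts, which are per gene, do not tell these forms apart. The level of Mylk therefore does not by itself speak of the smooth muscle form.

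The gene of smooth muscle α-actin and many others of the contractile set carry CArG boxes in their promoters, to which serum response factor (SRF) binds with its coactivators of the myocardin family. Srf was expressed at 132 to 265 CPM and Mrtfb at 53.3 to 114 CPM. Mrtfa had 12.3 to 26.8 CPM. Myocd, the coactivator found in smooth and cardiac muscle, had a single count in tumor 2 and none in the other 5 tumors. The promoters of Acta2 and Myl9 are shown because CArG boxes were found in them and both genes belong to the contractile set. RefSeq sequences on GRCm38.p6, from 250 bases before to 50 after a transcription start, were matched by symbol for 6 of the 9 genes (Acta2, Cnn1, Mme, Myl9, Mylk and Oxtr). The starts are those of the RefSeq entries. For all 6 genes they lie inside the GENCODE span printed for the gene, and far inside it for Mme and Mylk. The stretches below are written 5′ to 3′ on the strand of the gene, with capitals for 10-base matches to the CArG box consensus with at most 1 mismatch. The consensus reads the same on both strands. The Acta2 stretch is chr19:34255378-34255477 on the minus strand and lies inside the GENCODE span of Acta2. The Myl9 stretch is chr2:156775283-156775394 on the plus strand and lies before the GENCODE span of Myl9.
Acta2: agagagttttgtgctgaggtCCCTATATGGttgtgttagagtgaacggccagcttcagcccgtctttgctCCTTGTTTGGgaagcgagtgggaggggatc
Myl9: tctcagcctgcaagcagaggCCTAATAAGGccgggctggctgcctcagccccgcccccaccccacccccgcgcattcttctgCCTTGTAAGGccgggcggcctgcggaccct

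In Acta2, both matches hold 1 mismatch, and they begin 84 and 34 bases before the RefSeq start. In Myl9 the first match, 161 bases before the RefSeq start, is exact, and the second, 99 bases before it, holds 1 mismatch. The windows of Cnn1, Mylk, Oxtr and Mme hold no match, and other starts of Mylk and Mme were not searched. An exact CArG box is found in 1.63% of 32851 promoter windows of this length, and a match with at most 1 mismatch in 21.1%. These matches are a description of the sequence and were not tested as binding sites.

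Oxtr, the oxytocin receptor, is the gene through which the hormone reaches the contractile cell. Oxtr (ENSMUSG00000049112, chromosome 6, 112473683 to 112489943, minus strand) had 14, 3, 6, 12, 10 and 19 counts in tumors 1 to 6. Its level lay between 1.20 CPM (tumor 2) and 3.71 CPM (tumor 6), with a median of 2.19 CPM and a mean of 2.21 ± 0.899 CPM (SD, n = 6). The interval of tumor 6, the highest, starts at 2.23 CPM and overlaps that of tumor 2, the lowest, which reaches 3.49 CPM. Among the 5 genes of the set that passed the filter on low counts, Oxtr was the exception in this respect. The intervals of the highest and lowest tumor did not overlap for Trp63, Mme, Myl9 and Mylk, 4 of 5, against 88.8% of all 12088 genes that passed.

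Most genes of the steps that follow the receptor in the cell were detected in every tumor. Of 18 other genes from oxytocin to contraction, 16 had more than 3 counts in every tumor and 13 reached 50 CPM in at least 1 tumor. Oxt, the gene of the hormone itself, made by neurons of the hypothalamus, had at most 3 counts in a tumor. Gnaq, whose G protein couples the receptor to phospholipase C, had 67.5 to 146 CPM and Gna11, its close relative, 46.7 to 76.6 CPM. Of the phospholipases, Plcb3 had 23.0 to 31.4 CPM, while Plcb2, the form of blood cells, had at most 4 counts in a tumor. Plcb1 lay between 3.22 CPM (tumor 1) and 35.5 CPM (tumor 5), and Plcb4 between 9.33 CPM (tumor 1) and 49.6 CPM (tumor 4). Of the receptors that release calcium from the endoplasmic reticulum, Itpr2 had 160 to 209 CPM. Rock1, a kinase that holds back the removal of phosphate from the light chain, ranged from 251 to 529 CPM outside tumor 1, where it was 108 CPM. Of the 16 genes of this list that passed the filter, 11 were lowest in tumor 1, whose library stood apart, against 28.8% of all 12088 genes. The part of the library in this was not tested.

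**Figure D3:**
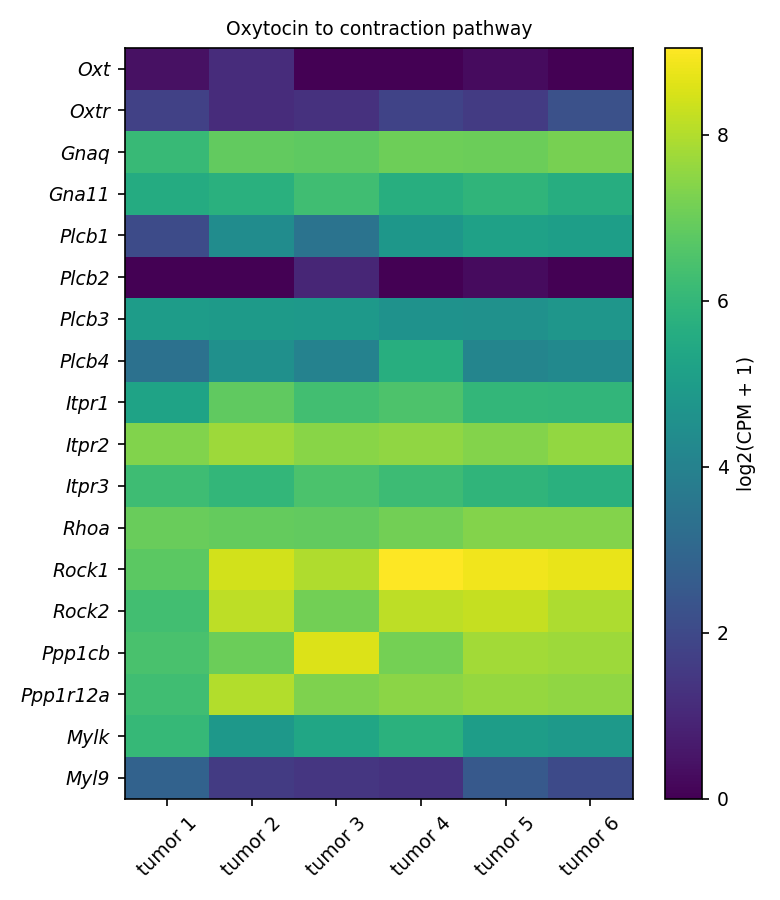
Heat map of log2(CPM + 1) for 15 of these 18 genes with Oxtr, Mylk and Myl9 (rows) in the 6 tumors (columns), with a lighter color for a higher level. Oxt, Oxtr, Plcb2 and Myl9 are dark in all 6 tumors, and Rock1 is lower in tumor 1, at 108 CPM, than in the others, at 251 to 529 CPM.

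Trp63 encodes p63, the relative of p53 that basal cells of stratified and glandular epithelia need. Trp63 (ENSMUSG00000022510, chromosome 16, 25683763 to 25892102, plus strand) had 20, 15, 43, 75, 23 and 25 counts in tumors 1 to 6. Its level lay between 3.39 CPM (tumor 1) and 16.0 CPM (tumor 4), with a median of 5.43 CPM and a mean of 7.54 ± 4.79 CPM (SD, n = 6). Tumors 4 and 3 were high, at 16.0 and 10.4 CPM, and the other 4 lay at or under 5.98 CPM. The interval of tumor 4 starts at 12.5 CPM, above the upper limit of 5.24 CPM for tumor 1. The annotation lists 8 transcripts of Trp63, of which 4 end within 300 bases of the last annotated end. Forms with or without the N-terminal transactivation domain are not told apart by these counts. Trp73, the third member of the p53 family, had at most 1 count in a tumor.

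Mme encodes neprilysin (CD10, CALLA), a peptidase of the cell surface that marks myoepithelial cells in the breast but is also made by other cells. It had the highest median of the 9 genes (ENSMUSG00000027820, chromosome 3, 63241537 to 63386030, plus strand). Its counts were 173, 63, 92, 262, 485 and 353 in tumors 1 to 6. The level lay between 22.3 CPM (tumor 3) and 96.8 CPM (tumor 5), with a median of 42.5 CPM and a mean of 49.7 ± 29.7 CPM (SD, n = 6). Tumors 5, 6 and 4 lay at 55.7 CPM or more, and tumors 1, 2 and 3 at 29.4 CPM or less. The interval of tumor 5 starts at 88.4 CPM, above the upper limit of 27.4 CPM for tumor 3. The dispersion of Mme in edgeR was 2.87 times the trend at its level, a ratio higher than that of 93.5% of the genes that passed the filter. The ratio was 1.43 for Trp63, 1.08 for Myl9, 0.860 for Mylk and 0.308 for Oxtr.

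The highest tumor had at least 4 times the CPM of the lowest for 3 of the 5 genes that passed the filter, against 22.9% of 12088 genes. That share is over genes of all levels and is not matched for level, and counting error widens the ratio at low counts such as those of Myl9. The ratio was 4.70 for Trp63, 4.34 for Mme and 4.10 for Myl9, and it was 3.10 for Oxtr and 2.42 for Mylk. All 3 lay just above the limit of 4, and the count was 1 without tumor 1 and 1 without tumor 4. No tumor was separated from the other 5 by a gap above Dixon's critical value in any of the 5 genes (0 of 5), against 16.3% of all genes that passed. The highest tumor was not the same from gene to gene, being tumor 4 for Trp63, tumor 5 for Mme, tumor 6 for Oxtr and tumor 1 for Myl9 and Mylk.

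The mouse identifiers in the labels have 2 prefixes, QAF for tumors 1, 4, 5 and 6 and QSD for tumors 2 and 3, and the labels do not say what they stand for. Mme had 22.3 to 25.1 CPM in the 2 QSD tumors and 29.4 to 96.8 CPM in the 4 QAF tumors. Oxtr had 1.20 to 1.45 CPM in the QSD tumors and 2.00 to 3.71 CPM in the QAF tumors. For these 2 of 5 genes the QSD tumors were lower without overlap, against 5.2% of the genes that passed the filter. That share counts lower QSD tumors only, and both the split and the direction were chosen after seeing the data. The share without overlap in either direction, which would be larger, is not given here. The Oxtr values of tumors 2 and 3 rest on 3 and 6 counts. Their intervals reach 3.49 and 3.17 CPM and overlap those of all 4 QAF tumors. For Mme, the interval of tumor 1 starts at 25.1 CPM and overlaps those of tumors 2 and 3. Prefix and any other difference between these tumors cannot be told apart.

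Per length, the order of the medians was Mme (9.61 TPM), Mylk (8.09), Myl9 (5.57), Trp63 (1.65), Oxtr (1.16), Acta2 (0.806), Tagln (0.436), Cnn1 (0.0795) and Myh11 (0.0316). The ranges over tumors of every neighbouring pair in this order overlapped. Mme was above Mylk in 3 of 6 tumors, Mylk above Myl9 in 4, and Myl9 above Trp63 in 5. Neighbours in this order per length were therefore not separated beyond the spread between tumors. By CPM, without division by length, Trp63 (5.43 CPM) ranked above Myl9 (2.56 CPM) and Myh11 above Cnn1. In CPM the ranges of Mylk (27.1 to 65.7 CPM) and Myl9 (1.49 to 6.11 CPM) did not overlap.

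Whether the genes varied together was asked with Pearson's r of log2(TMM-scaled CPM + 1) over the 6 tumors, where TMM is edgeR's scaling of libraries. Of 36 pairs, 18 had a positive r, and the median r was -0.01. No pair had an adjusted p under 0.05 by the exact permutation test (0 pairs, and 1 at an unadjusted p under 0.05). The test ran over the 720 orders of the tumors, with Benjamini-Hochberg adjustment over the 36 pairs. With 6 tumors the smallest p of this permutation test is 0.00139, so a lone pair could not fall under 0.05 after adjustment. Over all 36 pairs, positive and negative values were equally frequent, but most of these pairs hold a gene that did not pass the filter. Among the 10 pairs of genes that passed the filter, 6 had a positive r. The median r of these 10 was 0.135, and r lay between -0.91 and 0.65.

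The pair at an unadjusted p under 0.05 was Trp63 and Myl9, which ranked the tumors in exactly opposite order. Their r was -0.91 (two-sided exact permutation p = 0.00833, adjusted p = 0.300 over 36 pairs), and Spearman's rho was -1 (exact permutation p = 0.00278, adjusted p = 0.10). Without tumors 3 and 4, the farthest from the median of Trp63, r was -0.96, and without tumor 1 it was -0.87. Within the 4 QAF tumors r was -0.99, and the 2 QSD tumors are too few for a value. The relation did not pass the correction, which a lone pair could not pass with 6 tumors. Trp63 and Mylk had an r of 0.09 over 6 tumors of 0.92 without tumor 1, where Mylk was highest and Trp63 lowest, and of -0.92 without tumors 3 and 4, so its direction rests on single tumors.

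The study classes tumors by pimonidazole staining, which is not in these files, and also uses a score of 3 hypoxia genes, the mean TPM of Vegfa, Slc2a1 and Car9. The myoepithelial genes were set against this score. The score was 48.5, 37.2, 51.4, 76.6, 94.4 and 47.3 TPM in tumors 1 to 6. No gene of the 9 was related to the score with an adjusted p under 0.05 (0 genes, and 0 at an unadjusted p under 0.05, by the two-sided exact permutation test). Mme had the highest r among the 5 genes that passed the filter, 0.67 (exact permutation p = 0.163, adjusted p = 0.731 over 9 genes), with Spearman's rho of 0.43 (exact permutation p = 0.419). Without tumors 4 and 5, the farthest from the median score, the r of Mme was 0.07, but this also narrows the range of the score. With 1 tumor left out, the r of Mme was lowest at 0.39 (without tumor 5) and highest at 0.90 (without tumor 6). With the score in TMM-scaled CPM the r of Mme was 0.79. The r of Mme was 0.65 without tumor 1 and 0.55 within the 4 QAF tumors. For Trp63, Oxtr, Myl9 and Mylk, r lay between 0.11 and 0.21, and its sign turned on single tumors. The r of Trp63 was 0.71 without tumor 5 and -0.23 without tumor 4, and that of Oxtr was 0.60 without tumor 6 and -0.26 without tumor 2. The r of Myl9 was -0.34 without tumor 5 and -0.06 without tumor 2, and that of Mylk was -0.21 without tumor 2 and -0.06 without tumor 4. Within the 4 QAF tumors r was 0.37 for Trp63, -0.68 for Oxtr, -0.29 for Myl9 and -0.28 for Mylk. All of these values rest on 6 tumors.

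**Figure D4:**
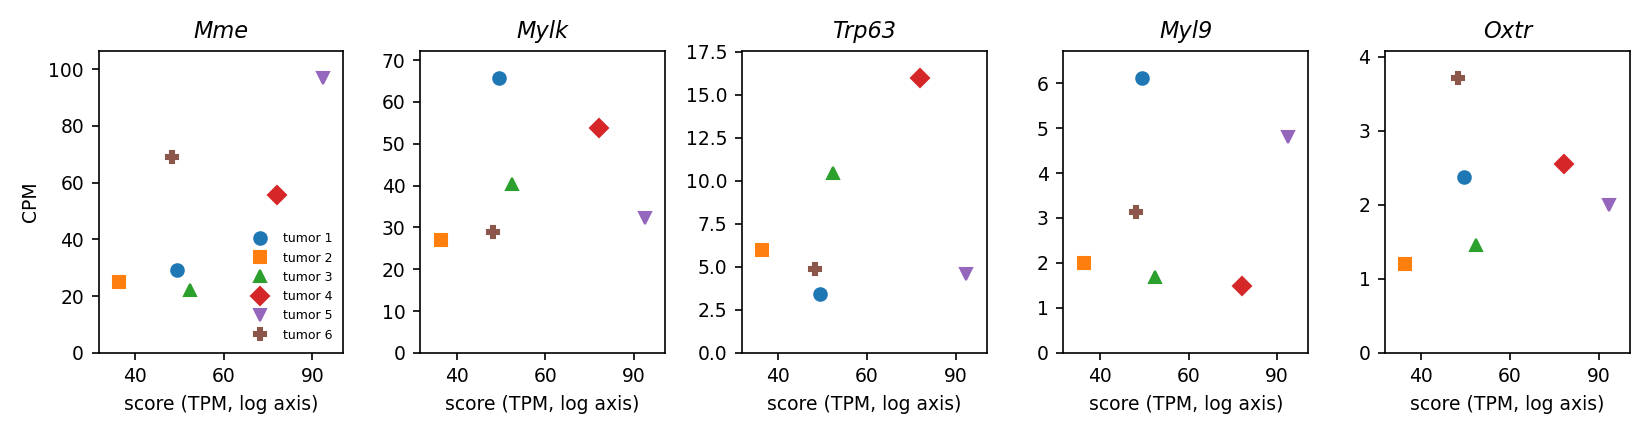
CPM of the 5 genes that passed the filter (vertical axes, from 0) against the 3-gene hypoxia score in TPM (horizontal axis, logarithmic), 1 point per tumor. Tumor 5, with the highest score of 94.4 TPM, is highest for Mme at 96.8 CPM but not for Mylk, Trp63, Myl9 or Oxtr.

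The other smooth muscle genes of a list of 16 also ranged from the floor to well above it. Actg2, Des, Synpo2 and Kcnmb1, found mainly in muscle, had at most 3 counts in every tumor, and Kcnmb1 had none. Ppp1r14a, the inhibitor of the phosphatase that opposes Mylk, had at most 9 counts in a tumor. In contrast, 10 of the 16 genes had more than 3 counts in every tumor, and 9 reached 50 CPM in at least 1 tumor. These included Cald1 (caldesmon, 443 to 974 CPM), Tpm1 (tropomyosin, 354 to 656 CPM), Flna (filamin A, 146 to 328 CPM) and Actn1 (α-actinin, 114 to 262 CPM), which also serve the cytoskeleton of cells outside muscle. Lmod1, a leiomodin of smooth muscle that nucleates actin, had 9.16 to 54.5 CPM and was highest in tumor 6. Smtn (smoothelin) had 30.3 to 89.3 CPM, Csrp1 had 141 to 265 CPM and Vcl had 31.0 to 70.7 CPM. Not every gene linked to smooth muscle was therefore near the floor. Tpm2, the β-tropomyosin, reached 113 CPM in tumor 5, and ranged from 14.5 to 29.1 CPM elsewhere.

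Other basal genes differed widely in level. Of 17 such genes, 11 had more than 3 counts in every tumor. Krt14, a keratin of basal cells, had 88.8 to 359 CPM and was highest in tumor 5, as was Krt17, at 127 CPM against 14.7 to 40.8 CPM in the others. Krt5, which pairs with Krt14 in basal cells, had 4.24 to 17.4 CPM. The median of Krt5 was 8.68 CPM, against 5.43 CPM for Trp63, and their ranges overlapped. Per length the medians were 10.1 TPM for Krt5 and 1.65 TPM for Trp63, a gap that the longer exons of Trp63 widen. Ngfr had no count in any tumor, and Col17a1 had at most 5. Sox10, found in basal cells and in luminal progenitors, had 543 to 1835 CPM and made up 30.6 to 68.5% of the sum of the list. Itga6, the integrin α6 of the basement membrane receptor, was lowest in tumor 1, at 91.3 CPM, the other tumors ranging from 290 to 512 CPM. The 7 luminal genes, which include Epcam, summed to 3957 to 4874 CPM, whereas the 6 contractile genes of the set summed to 31.1 to 73.0 CPM and Trp63, Oxtr and Mme to 32.3 to 103 CPM.

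**Figure D5:**
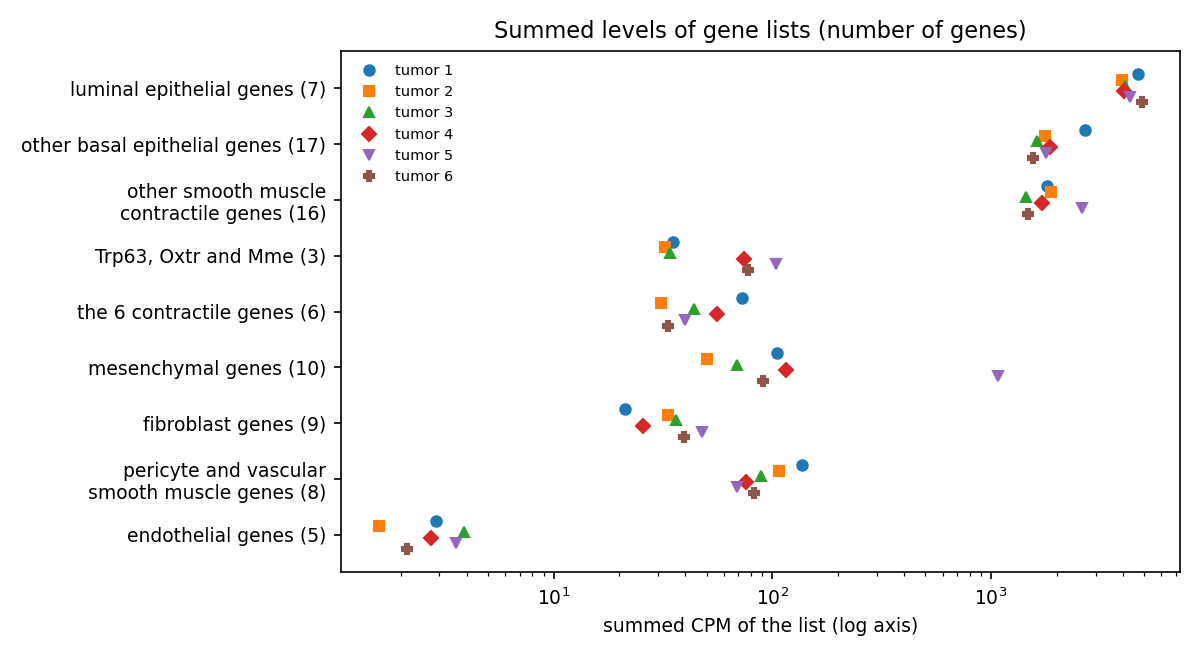
Summed CPM (horizontal axis, logarithmic) of gene lists in each of the 6 tumors, with the number of genes in parentheses. Luminal genes lie at 3957 CPM or more in every tumor, the 6 contractile genes between 31.1 and 73.0 CPM, and the mesenchymal genes of tumor 5 at 1080 CPM, apart from the other 5 tumors.

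Smooth muscle genes are also made by pericytes, vascular smooth muscle, activated fibroblasts and cells with mesenchymal change. The CD31 and PDGFRα gates would remove endothelial cells and many fibroblasts. Of 8 genes of pericytes and vascular smooth muscle, Rgs5, Cspg4 and Higd1b had at most 3 counts in every tumor and Pdgfrb at most 4. The list summed to 69.1 to 136 CPM, nearly all from Notch3 (45.3 to 78.4 CPM) and Mcam (17.2 to 48.2 CPM), which epithelial cells can also make, and to 3.59 to 9.33 CPM without these 2. The 9 fibroblast genes summed to 21.2 to 47.7 CPM, with at most 1 count of Lum and at most 4 of Thy1, and the 5 endothelial genes to 1.59 to 3.88 CPM. The 10 mesenchymal genes summed to 1080 CPM in tumor 5, mainly from Fn1 (666 CPM), Vim (223 CPM) and Sparc (169 CPM), while the other 5 tumors ranged from 50.2 to 116 CPM. In tumor 5, Acta2 had 2 counts and Tagln 8, while Mme was at its highest. The part of these cells in the levels of Mme, Mylk and Trp63 was not tested.

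The genes whose pattern over the 6 tumors was most like that of a contractile and a basal gene were sought among the 8865 genes whose mean reached 10 CPM. Since Acta2 and Tagln were at or under 3 counts in 3 or more tumors, Myl9 stood for the contractile genes. The 5 genes with the highest r with Myl9 were Nek6 (0.99), Nol12 (0.98), Tmsb10 (0.98), Nfkbib (0.98) and Ppia (0.98). For Trp63 they were Zfp12 (0.98), Fam120a (0.97), Dlg1 (0.97), Osbpl5 (0.95) and Ppa2 (0.95). An r above 0.9 was reached by 0.902% of the genes with Myl9 and by 0.180% with Trp63. These values describe likeness over 6 points among many genes.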

How the data were processed

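Sorted CD45-EPCAM+ cells of 6 tumors were analysed. Per the labels and the study's methods, libraries were made with QuantSeq 3′ mRNA-Seq FWD and identifiers of 6 bases, trimmed with bbduk, aligned to GRCm38/mm10 with STAR 2.5 and counted with HTSeq. The deposited values are raw counts, 1 file per tumor. The annotation release, strand setting and use of identifiers are not given in the sources used here. The 5 lines naming no gene (16.1 to 41.4% of reads) were left out. Of 47643 identifiers, 47224 matched GENCODE M21, the source of symbols and lengths.

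From the counts, CPM, TMM-scaled CPM, counts over DESeq2 size factors and TPM were computed. edgeR's filterByExpr (minimum count 10, total 15, group size 3) kept 12088 genes, and edgeR gave dispersions without groups. Pairs of libraries differed by 19.3 to 122 times counting noise (chi-square per degree of freedom), so each counted as 1 sample. Each sample has its own mouse identifier. No group was compared, so no test across genes was made. Relations used exact permutation. Scripts were tested on simulated data. The 9 genes and the lists were chosen with earlier results of these data known. Named genes were the 9, a choice of the list genes at 50 CPM or defining another cell, and the 5 nearest in pattern. Other genes named, and the non-muscle relatives, were chosen after their values were seen. Versions were DESeq2 1.42.0, edgeR 4.0.16, R 4.3.3 and Python 3.11.15. Some genes of the oxytocin, basal, luminal and other lists, including some at 50 CPM or more, are counted but not reported singly here.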

Additional observations from a re-analysis of the deposited data

Results flagged for a closer look

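Of 19 measures looked at over the 6 tumors (5 myoepithelial genes and 14 gene lists), 5 had an extreme tumor whose distance from its neighbour, as a share of the whole range, exceeded Dixon's 95% critical value. Chance flags about 1 in 20 under a normal spread, 16.3% of the 12088 genes that passed the filter exceeded the same value, and the measures are not independent. The lists were chosen with earlier results of these data known, so the flags are a description and not a test. None of the 5 was a myoepithelial gene. The summed level of the 17 other basal genes was highest in tumor 1 at 2679 CPM, followed by tumor 4 at 1861 CPM, a gap of 0.723. Sox10 made up 68.5% of that sum in tumor 1, and without Sox10 the highest was tumor 5, at 1231 CPM, with a gap of 0.396. The mesenchymal genes summed to 1080 CPM in tumor 5, a gap of 0.937. Tumor 3 was set apart by the 7 immune genes (215 CPM, a gap of 0.833), the 5 erythroid genes (864 CPM, a gap of 0.926) and the 5 skeletal muscle genes (9.46 CPM, a gap of 0.828). In tumor 3 the myoepithelial genes were within the range of the other tumors or at its edge, with the highest Acta2 (5 counts) and the lowest Mme (22.3 CPM).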

How the results depend on the processing

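No paired analysis was possible because all 6 tumors form a single group. Of 108 alternative medians of the 9 genes, 103 moved by less than 1 SD between tumors. The others were the change of unit to TPM (Mme 9.61, Mylk 8.09, Myl9 5.57 and Oxtr 1.16) and Cnn1 over the 4 QAF tumors (0.280 CPM). Of 144 alternative list medians, 140 moved by less. Without the 10 most abundant genes in the total, which raises all levels by construction, the medians were 3783 CPM for the oxytocin pathway, 5783 for the other actin and myosin genes, 2209 for the other basal genes and 5156 for the luminal genes. The number of myoepithelial genes with a 4-fold range between tumors, 3 as reported, was 7 without the filter on low counts, since genes with 0 counts in a tumor then enter, and 1 to 3 with each tumor left out, being 1 without tumor 1 or without tumor 4. The number with a tumor apart by Dixon's criterion was 0 to 1 with each tumor left out, being 1 without tumor 3. No relation between members or with the score passed the adjusted threshold under any alternative run. A lone pair of members could not pass it in any run. A lone relation with the score could not pass it in runs with fewer than 6 tumors, which have fewer orders. Of 160 alternative values of single relations, 18 changed sign. The depth of 2509482 to 5893246 counts limits statements on Acta2, Myh11, Cnn1 and Tagln. The alternatives by prefix, without Sox10, without Notch3 and Mcam and without mitochondrial genes were chosen after seeing the data.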
